A study of Homo sapiens with 12 samples.

Results

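Autophagy genes were examined in C4-2 cells, a castration-resistant prostate cancer line derived from LNCaP cells, after chemical inhibition of PBK, the PDZ binding kinase, a serine/threonine kinase with a role in mitosis. The 40 genes were a list of the core autophagy machinery and of cargo receptors, matched by symbol to the Ensembl identifiers of the deposited count tables, which held 54127 genes. An identifier was found for 39 of the 40, since the identifier supplied for NCOA4, the receptor that delivers ferritin to autophagosomes, was not among those of the tables, and NCOA4 was not analysed here. Of these 39 genes, 38 had at least 10 counts in at least 6 samples and were tested among 14505 genes, and MAP1LC3A was below that limit.

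The RNAseq comprised 12 libraries, all of C4-2 cells grown in RPMI with serum. In 6 of them the cells had received DMSO vehicle and in the other 6 the cells had received PBKi (HI-TOPK-032, also called TOPK-32, a catalytic inhibitor of PBK) at 1 µM according to the sample labels, for 6 h according to the methods of the study. Nothing in the labels says whether the 6 replicates came from separate cultures, so that p-values measure the spread between these samples, which may be technical. The comparison asks how inhibition of the kinase, in a single cell line and with a single compound, changed the transcript levels of these genes.

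Macroautophagy encloses cytoplasm in a double membrane, the phagophore, which closes into an autophagosome and fuses with the lysosome. The ULK kinase complex starts the process, a class III phosphatidylinositol 3-kinase complex built on Beclin 1 marks the membrane with its lipid, and WIPI proteins read that mark while ATG2 and ATG9A supply lipids. A pair of conjugation reactions then attach ubiquitin-like ATG8 proteins (the LC3 and GABARAP families) to the membrane, where receptors such as optineurin bind them together with their cargo. Transcript levels report none of the flux through this pathway, much of which is set by phosphorylation and by turnover of the proteins.

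The DMSO libraries held 9663203 to 28029908 reads on genes and the PBKi libraries 13122415 to 22817803. Expression is given in CPM, the read count scaled to a fixed library size. PBKi and DMSO samples lay apart on the first principal component of log2 CPM (61.0% of the variance). Along the second (9.76%), replicates 1 to 3 of either treatment lay on one side and replicates 4 to 6 on the other, a division that the labels do not name. DMSO replicate 5, the shallowest library, lay furthest out on the second component, and it had the highest DMSO value for 10 and the lowest for 13 of the 38 genes tested. Of the uniquely aligned reads, 5.74% to 6.96% lay outside annotated genes in the DMSO libraries and 5.94% to 9.30% in the PBKi libraries, where replicates 3 and 6 stood highest. All 8 prostate epithelial markers were above 1 CPM, as were 2 of 6 stromal markers (COL1A1 and PDGFRB), 1 of 4 endothelial markers (VWF) and 0 of 8 immune markers. The summed level of the stromal markers was 21.2 to 26.1 CPM in DMSO and 19.3 to 24.8 CPM in PBKi, and that of the immune markers was 0.415 to 0.866 CPM in DMSO and 0.624 to 1.14 CPM in PBKi, with CD2 and MS4A1 at 0 in all libraries. The prostate markers, which include androgen-regulated genes, summed to 4392 to 5233 CPM in DMSO and 2346 to 3124 CPM in PBKi, and the part of this difference in the values below was not tested.

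The promoters of the 3 members with the greatest rises (OPTN, MAP1LC3B and GABARAPL1) and of GABARAPL2, an ATG8 gene that moved the other way, are given here because the values below turn on these genes. They are 300 bases long, come from RefSeq on GRCh38.p14, and run 5′ to 3′ across the annotated start of the gene on the plus strand. OPTN (chr10:13099832-13100131, the first of 2 annotated starts), MAP1LC3B (chr16:87392086-87392385), GABARAPL1 (chr12:10212627-10212926) and GABARAPL2 (chr16:75566129-75566428) are written in lower case, and capitals mark the letters of the 1 motif found among them.
OPTN: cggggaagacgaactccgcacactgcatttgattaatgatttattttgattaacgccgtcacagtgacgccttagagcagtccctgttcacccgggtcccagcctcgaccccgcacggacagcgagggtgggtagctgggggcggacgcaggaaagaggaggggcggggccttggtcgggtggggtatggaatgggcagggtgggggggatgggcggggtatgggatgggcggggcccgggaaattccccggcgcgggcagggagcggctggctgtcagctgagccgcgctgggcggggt
MAP1LC3B: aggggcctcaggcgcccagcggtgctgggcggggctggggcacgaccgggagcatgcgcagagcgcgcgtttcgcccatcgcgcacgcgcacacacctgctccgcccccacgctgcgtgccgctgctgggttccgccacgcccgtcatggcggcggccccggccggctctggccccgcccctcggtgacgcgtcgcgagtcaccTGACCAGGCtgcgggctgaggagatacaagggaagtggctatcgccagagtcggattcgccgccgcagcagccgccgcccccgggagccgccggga
GABARAPL1: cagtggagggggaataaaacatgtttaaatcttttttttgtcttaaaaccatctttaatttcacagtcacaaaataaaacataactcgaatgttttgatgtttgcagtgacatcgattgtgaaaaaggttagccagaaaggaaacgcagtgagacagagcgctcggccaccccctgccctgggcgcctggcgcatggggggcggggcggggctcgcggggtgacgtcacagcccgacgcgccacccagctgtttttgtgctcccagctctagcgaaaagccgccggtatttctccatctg
GABARAPL2: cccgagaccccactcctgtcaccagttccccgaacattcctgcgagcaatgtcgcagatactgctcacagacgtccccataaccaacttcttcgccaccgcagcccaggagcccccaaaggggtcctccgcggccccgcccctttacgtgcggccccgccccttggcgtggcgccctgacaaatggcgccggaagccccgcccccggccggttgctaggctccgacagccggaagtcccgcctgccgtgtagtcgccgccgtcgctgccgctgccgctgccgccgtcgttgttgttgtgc
The motifs searched on both strands were the E-box core CACGTG bound by the MiT/TFE factors, the forkhead motif GTAAACA bound by FOXO factors and the antioxidant response element core TGACNNNGC bound by NRF2. A promoter was supplied for 35 of the 40 members. The E-box letters were found in 2 of these 35 genes (5.71%), beside 8.77% of 27305 genes of the same table, and in 0 of the 10 upregulated members that had a promoter. FOXO letters were found in 2 of 35 (5.71%, beside 4.19%), 1 of them among the 10 upregulated. The antioxidant letters were found in 4 of 35 (11.4%, beside 16.1%) and in 2 of the 10 upregulated. In MAP1LC3B the antioxidant letters began at position -46 from the start. These are matches of letters in a short window and say nothing of binding.

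PBKi upregulated 12 of the 38 genes tested and downregulated 4, and 22 did not pass the test (edgeR's quasi-likelihood test, Benjamini-Hochberg adjusted p under 0.05 over all genes). OPTN, the gene of the ubiquitin-binding receptor optineurin, rose 5.00-fold, and the ATG8 genes MAP1LC3B and GABARAPL1 rose 1.92-fold and 1.79-fold, whereas the greatest change among the genes of initiation, nucleation and conjugation was the 1.23-fold rise of ATG4A. Over all genes tested, 20.1% were called higher and 21.5% lower (41.7% in either direction), so that a large part of the transcriptome had moved. Of the members, 31.6% were called higher and 10.5% lower. The 42.1% of members called in either direction lay near the 41.7% of all genes tested. The median log2 fold change of the 38 genes was 0.097, beside -0.012 for all genes tested, and 23 of the 38 had a positive value. The 6 samples of each group did not overlap for 7 upregulated members (OPTN, MAP1LC3B, GABARAPL1, GABARAP, WIPI1, WDR45 and STX17), beside 10.5% of all genes tested with no overlap in that direction and 9.68% in the other. With a log2 fold change of 0.5 or more in size, 3 of the 38 members were called higher and 0 lower. Of all genes tested, 8.81% were called higher and 4.32% lower at that size, so that the members did not stand out by this count. Since the RNA came from bulk cells, a change in the share of cells that express a gene and a change of its level per cell cannot be told apart.

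**Figure D1:**
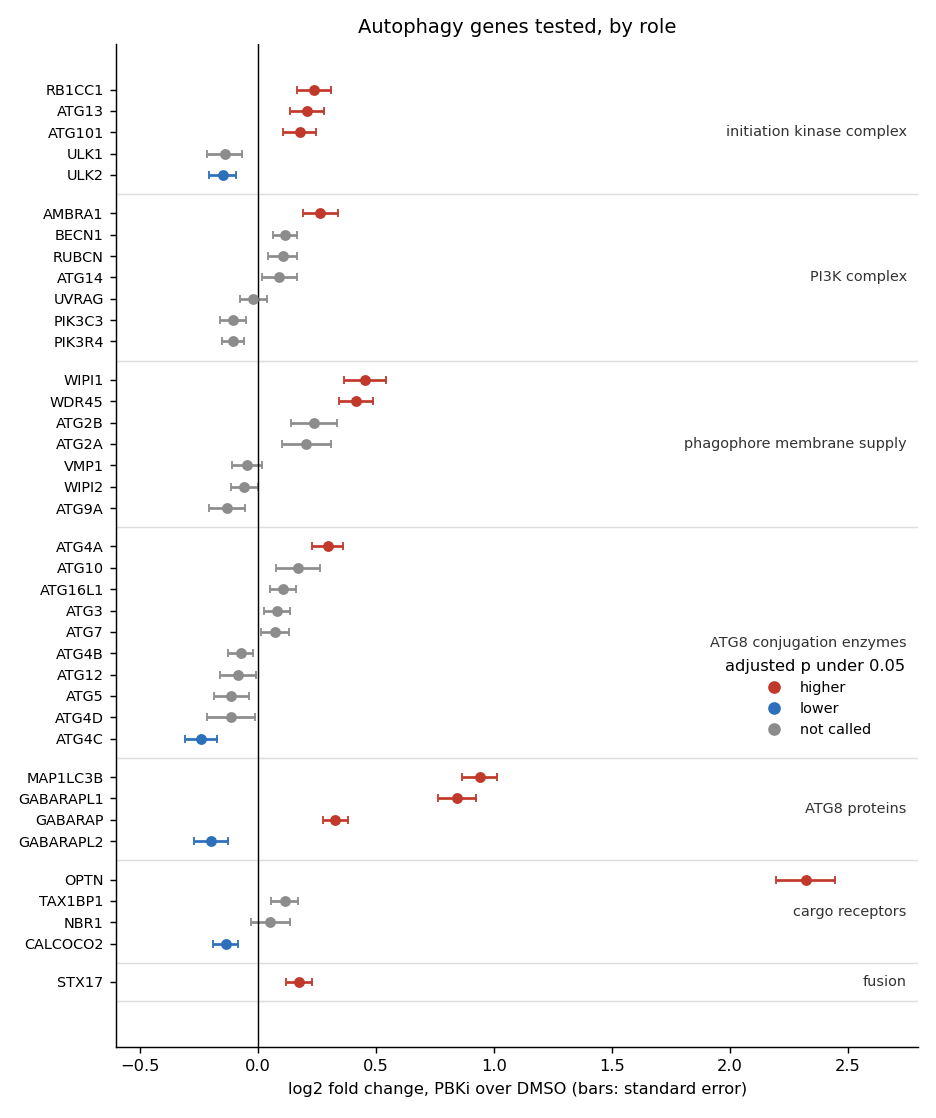
Log2 fold change of PBKi over DMSO (x axis) for the 38 autophagy genes tested, grouped by role, with bars for the standard error and colours for the call. OPTN at 2.32, MAP1LC3B at 0.94 and GABARAPL1 at 0.84 lie apart from the other 35 genes, which lie between -0.24 and 0.45.

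Among the cargo receptors, which tie ubiquitinated or otherwise marked cargo to ATG8 proteins, OPTN rose and the other 3 of the 4 tested did not. OPTN (ENSG00000123240, GRCh37 chromosome 10, 13141449 to 13180308, plus strand) had 6.27, 7.06 and 8.44 CPM in the lowest, median and highest DMSO sample. The corresponding PBKi values were 23.7, 37.0 and 41.6 CPM. Every PBKi sample was thus well above every DMSO sample, with the lowest in PBKi replicate 5. The log2 fold change was 2.32 (SE, its standard error, 0.12, adjusted p = 1.65e-10, n = 6 per group, edgeR), and replicates 1 to 3 alone gave 2.55 and replicates 4 to 6 alone 2.09. The gene was read from 78 to 174 counts per sample in DMSO and 353 to 982 in PBKi. Per kilobase of its canonical transcript, OPTN was 38th of the 39 genes with an identifier in DMSO, at 2.09 CPM per kb, and reached 10.3 CPM per kb in PBKi. The annotation places CCDC3 on the opposite strand over part of OPTN, and whether the counting used strand is not given in the sources used here.

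The other receptors had higher levels per kilobase and smaller log2 fold changes. TAX1BP1, a ubiquitin-binding receptor related to CALCOCO2, had a log2 fold change of 0.11 (adjusted p = 0.129). NBR1, a receptor of protein aggregates and peroxisomes, had a log2 fold change of 0.05 (adjusted p = 0.648). CALCOCO2, which encodes NDP52, a receptor of invading bacteria and damaged mitochondria, was lower by a log2 fold change of -0.14 (adjusted p = 0.045). That call was kept in 2 of the 12 fits that left out 1 sample. Per kilobase of transcript the DMSO level was 82.0 CPM per kb for TAX1BP1, 44.2 for NBR1 and 39.3 for CALCOCO2.

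**Figure D2:**
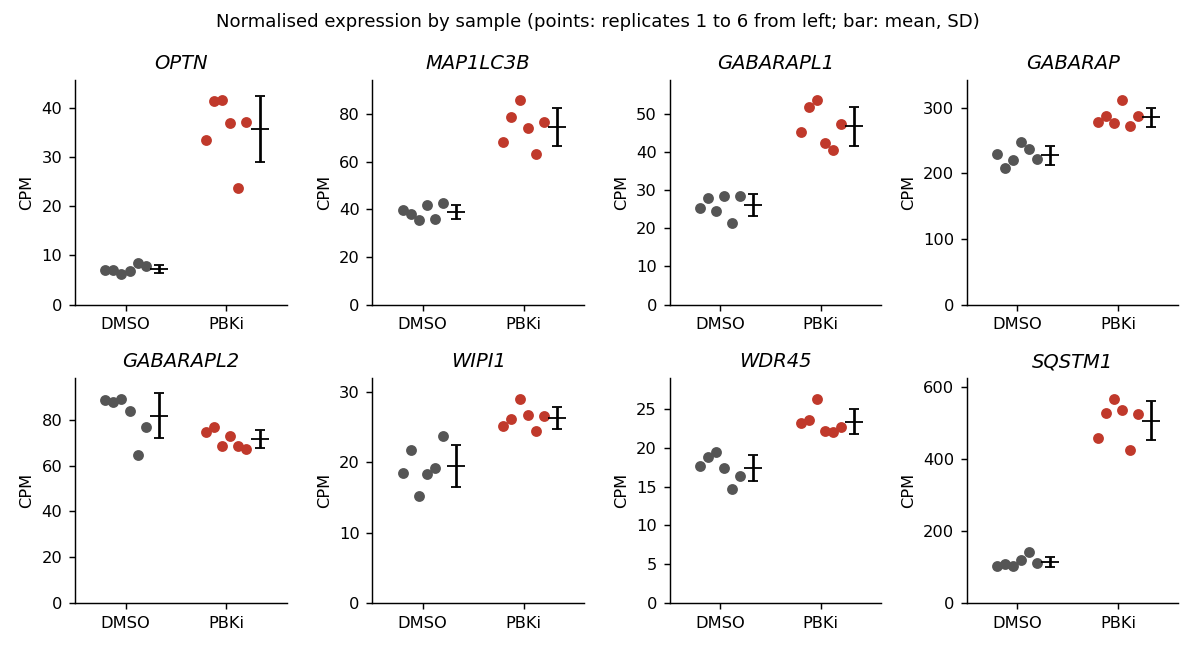
Normalised expression in CPM (y axis, from 0) of 7 autophagy genes and of SQSTM1 in the 6 DMSO and 6 PBKi samples, with points for replicates 1 to 6 from left to right and bars for the mean and SD. DMSO and PBKi points do not overlap for any of these genes except GABARAPL2, whose DMSO replicate 5 lies below all PBKi samples and whose DMSO replicate 6 lies within their range.

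The ATG8 proteins are the ubiquitin-like tags of the autophagosome, on which receptors and fusion factors dock. Of the 4 ATG8 genes tested, MAP1LC3B, GABARAPL1 and GABARAP rose and GABARAPL2 fell. MAP1LC3B (ENSG00000140941, GRCh37 chromosome 16, 87417559 to 87438385), which encodes LC3B, the isoform most used as a marker of autophagosomes, had 35.4, 38.8 and 42.5 CPM in the lowest, median and highest DMSO sample and 63.3, 75.4 and 85.9 CPM in PBKi. Its PBKi values lay above all its DMSO values. The log2 fold change was 0.94 (SE 0.073, adjusted p = 2.27e-08), with 1.06 in replicates 1 to 3 and 0.83 in replicates 4 to 6.

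GABARAPL1 (ENSG00000139112, GRCh37 chromosome 12, 10365057 to 10375727), a member of the GABARAP subfamily, had 21.5, 26.7 and 28.6 CPM in the lowest, median and highest DMSO sample and 40.6, 46.4 and 53.7 CPM in PBKi. The groups did not overlap, and PBKi replicate 5 was again the lowest treated sample. Its log2 fold change was 0.84 (SE 0.081, adjusted p = 3.21e-07), with 0.98 in replicates 1 to 3 and 0.72 in replicates 4 to 6. An antisense gene, GABARAPL1-AS1, overlaps it on the other strand. MAP1LC3B is likewise overlapped by FBXO31 on the other strand and has a named pseudogene, MAP1LC3BP1, with which it could share reads. Among the called members, named pseudogenes also exist for WDR45 (WDR45P1) and ATG4A (ATG4AP1). On the same strand, ENSG00000288053 overlaps WDR45 and ENSG00000262526 overlaps GABARAP.

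GABARAP (ENSG00000170296, GRCh37 chromosome 17, 7143327 to 7145768), the founding member of that subfamily, was the most abundant of the 39 genes per kilobase. It had 207.8, 226 and 248 CPM in the lowest, median and highest DMSO sample and 272, 283 and 312 CPM in PBKi. All PBKi samples lay above all DMSO samples. The rise was smaller than that of GABARAPL1, with a log2 fold change of 0.33 (SE 0.053, adjusted p = 9.21e-05).

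GABARAPL2 (ENSG00000034713, GRCh37 chromosome 16, 75600273 to 75611779), which encodes GATE-16, had 64.5, 86.0 and 89.4 CPM in the lowest, median and highest DMSO sample and 67.1, 71.0 and 77.0 CPM in PBKi. The groups overlapped, since DMSO replicate 5 lay below every PBKi sample and DMSO replicate 6, at 76.7 CPM, lay below the highest of them. The log2 fold change was -0.20 (SE 0.071, adjusted p = 0.0316). Without DMSO replicate 5 it was -0.25 (adjusted p = 0.000817). The call was lost when any 1 of DMSO replicates 1 to 4 or PBKi replicates 3 to 6 was left out, with adjusted p between 0.062 and 0.0901, and without PBKi replicates 3 and 6 together (log2 fold change -0.15, adjusted p = 0.207). It was also lost with upper-quartile factors (-0.18, adjusted p = 0.061). In replicates 1 to 3 alone the log2 fold change was -0.26 (adjusted p = 0.00143), and in replicates 4 to 6 alone it was -0.11 (adjusted p = 0.462).

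MAP1LC3A (ENSG00000101460), which encodes LC3A, was barely transcribed. Its CPM in the lowest, median and highest DMSO sample were 0, 0.071 and 0.192, and the PBKi values were 0.178, 0.318 and 0.381. The lowest PBKi sample fell within the DMSO range. A total of 8 counts in the 6 DMSO samples, 2 of which had none, stood against 30 counts in PBKi. Scaled to library size this was a ratio of 3.56 (95% exact interval 1.59 to 8.98, which covers counting error only). In a fit without the limit on low counts, its adjusted p was 0.0138 by edgeR's quasi-likelihood test.

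Per kilobase of canonical transcript, the summed level of the 5 ATG8 genes was 289 ± 12.8 CPM per kb (SD, n = 6) in DMSO and 350 ± 14.4 CPM per kb (SD, n = 6) in PBKi. GABARAP made up most of that sum in both groups, with 59.8% ± 3.3 in DMSO and 61.9% ± 1.6 in PBKi (SD, n = 6). The share of GABARAPL2 was 29.1% ± 3.1 in DMSO and 21.0% ± 1.0 in PBKi, and the ranges (24.1% to 32.2% and 19.8% to 22.3%) did not overlap. MAP1LC3B had a share of 6.28% ± 0.42 in DMSO and 9.90% ± 0.90 in PBKi. GABARAPL1 had a share of 4.80% ± 0.48 in DMSO and 7.12% ± 0.72 in PBKi. These shares are descriptions of the same values as above, and they add no test.

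**Figure D3:**
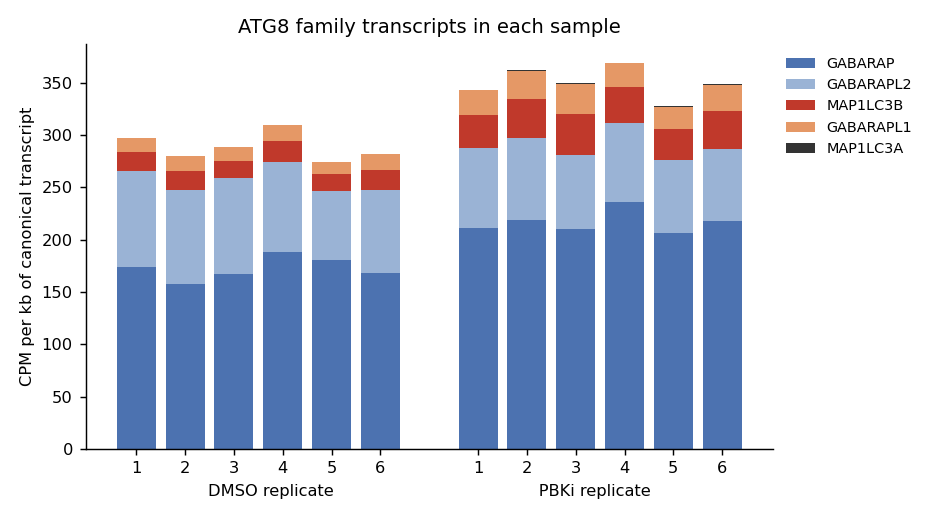
Level of the 5 ATG8 genes in each sample, in CPM per kb of canonical transcript (y axis), stacked by gene. The sum lies between 274.6 and 309.4 in the 6 DMSO samples and between 327.6 and 368.7 in the 6 PBKi samples, and the segments of MAP1LC3B and GABARAPL1 are taller in PBKi while that of MAP1LC3A is too thin to see in most samples.

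Paralogues were compared within each sample by the log2 ratio of their counts, which does not depend on how libraries are scaled, with a two-sided exact permutation test over all samples and adjustment over the 6 pairs examined. The log2 ratio of GABARAPL1 to GABARAPL2 was -1.64 ± 0.16 (SD, n = 6) in DMSO and -0.61 ± 0.17 in PBKi, a difference of 1.03. GABARAPL1 to GABARAP differed by 0.52, from -3.13 ± 0.20 to -2.61 ± 0.18. WIPI1 to WIPI2 differed by 0.51, from -1.77 ± 0.21 to -1.27 ± 0.11. Each of these 3 differences had an exact permutation p of 0.00216, the smallest that the design allows, and an adjusted p of 0.00433. The 6 PBKi ratios lay above the 6 DMSO ratios in each of them. For GABARAPL1 to GABARAP the groups nearly met, with the highest DMSO ratio at -2.89 and the lowest PBKi ratio at -2.87.

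For the other 3 pairs the test did not pass. MAP1LC3A to MAP1LC3B differed by 0.87 (exact permutation p = 0.0476, adjusted p = 0.0714), with a prior of 0.5 counts that matters at so few MAP1LC3A counts. ULK1 to ULK2 differed by 0.01 (exact permutation p = 0.905), with DMSO samples between -0.16 and 0.30 and PBKi samples between 0.01 and 0.30. ATG2A to ATG2B differed by -0.02 (exact permutation p = 0.935), with DMSO samples between -1.68 and -0.76 and PBKi samples between -1.61 and -0.94.

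**Figure D4:**
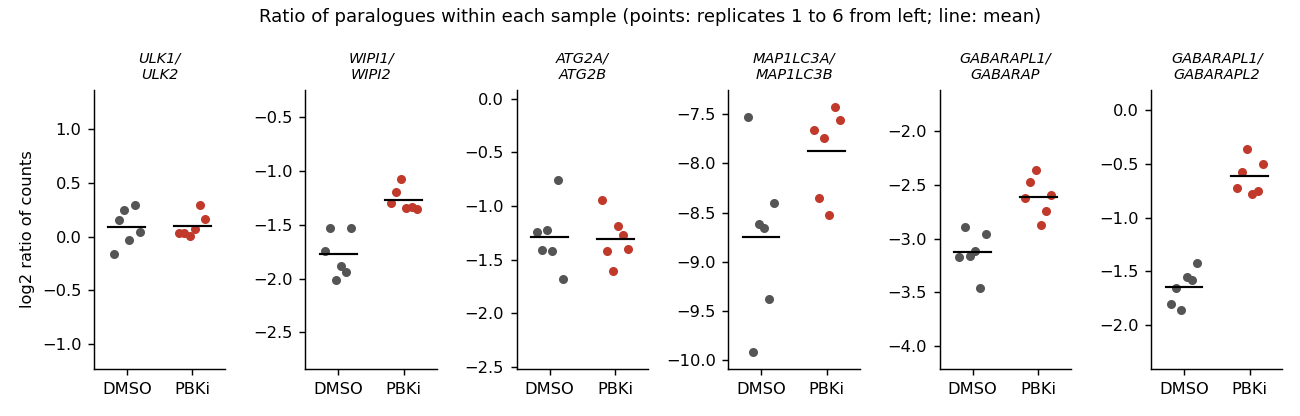
Log2 ratio of the counts of 6 paralogue pairs (y axis, spanning the same number of log2 units or more in each panel) in the DMSO and PBKi samples, with points for replicates 1 to 6 from left to right and lines for the mean. Groups are apart for WIPI1/WIPI2, GABARAPL1/GABARAP (narrowly) and GABARAPL1/GABARAPL2, and overlap for the other 3 pairs.

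In the group that supplies lipid and membrane to the phagophore, WIPI1 and WDR45 rose and the other 5 of 7 genes did not pass the test. WIPI1 (ENSG00000070540, GRCh37 chromosome 17, 66417089 to 66453654), which binds phosphatidylinositol 3-phosphate on the phagophore, had 15.2, 18.9 and 23.8 CPM in the lowest, median and highest DMSO sample and 24.5, 26.4 and 29.1 CPM in PBKi. The ranges came close to each other without overlapping. Its log2 fold change was 0.45 (SE 0.089, adjusted p = 0.000589), with 0.58 in replicates 1 to 3 and 0.34 in replicates 4 to 6, where the call was lost (adjusted p = 0.0522). ARSG is annotated on the opposite strand over WIPI1.

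WDR45 (ENSG00000196998, GRCh37 chromosome X, 48932092 to 48958108), which encodes WIPI4, a partner of ATG2, had 14.7, 17.5 and 19.4 CPM in the lowest, median and highest DMSO sample and 22.0, 22.9 and 26.4 CPM in PBKi. The groups did not overlap, and PBKi replicate 3 stood above the other treated samples. The log2 fold change was 0.41 (SE 0.073, adjusted p = 0.000207). WIPI2, the paralogue that recruits ATG16L1, had a log2 fold change of -0.06 (adjusted p = 0.436).

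The lipid transfer genes ATG2A and ATG2B had log2 fold changes of 0.20 (adjusted p = 0.125) and 0.24 (adjusted p = 0.0627). Without DMSO replicate 5, where ATG2A stood at 45.0 CPM, the value of ATG2A was 0.33 (adjusted p = 0.000465). By edgeR it also passed without the count filter (0.21, adjusted p = 0.0466) and in replicates 1 to 3 alone (0.25, adjusted p = 0.00945). ATG2B passed the test without DMSO replicate 6 (0.31, adjusted p = 0.0176) and without PBKi replicate 1 (0.31, adjusted p = 0.00841), and also with upper-quartile factors, without the count filter, with lanes 6 to 8 only, with a covariate for the replicate sets and in replicates 1 to 3 alone (adjusted p between 0.00971 and 0.0434). ATG9A, the scramblase carried by seed vesicles, and VMP1, a scramblase of the endoplasmic reticulum, had log2 fold changes of -0.13 (adjusted p = 0.177) and -0.05 (adjusted p = 0.586). Without DMSO replicate 5, where ATG9A stood at 89.7 CPM, the value of ATG9A was -0.05 (adjusted p = 0.448).

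Of the 5 genes of the initiation complex, the scaffold genes rose and ULK2 fell, with absolute log2 fold changes of at most 0.24. RB1CC1, which encodes the scaffold FIP200, had a log2 fold change of 0.24 (adjusted p = 0.0155). ATG13, the adaptor of the complex, had 0.21 (adjusted p = 0.0262), and ATG101, its partner, had 0.18 (adjusted p = 0.0498). The kinase genes had log2 fold changes of -0.15 for ULK2 (adjusted p = 0.0464) and -0.14 for ULK1 (adjusted p = 0.141). ULK1 passed the test without DMSO replicate 1 (-0.19, adjusted p = 0.0395) and with the replicate set (1 to 3 or 4 to 6) as a covariate (-0.15, adjusted p = 0.0494), and was -0.09 without DMSO replicate 5. ATG13 lost its call without DMSO replicate 1, DMSO replicate 3 or PBKi replicate 4 (adjusted p between 0.0512 and 0.0655), whereas ATG101 kept its call in 4 and ULK2 in 2 of the 12 fits that left out 1 sample. In replicates 4 to 6 alone no gene of the complex was called, with RB1CC1 at 0.13 (adjusted p = 0.374), ATG13 at 0.12 (adjusted p = 0.324) and ATG101 at 0.19 (adjusted p = 0.282). In replicates 1 to 3 alone RB1CC1 was 0.37 and ATG13 0.31. ATG101 (0.18, adjusted p = 0.0884 by edgeR) and ULK2 (-0.10, adjusted p = 0.228) were not called there. Without PBKi replicates 3 and 6 the calls of RB1CC1, ATG13 and ATG101 were lost (adjusted p between 0.0548 and 0.0773). ULK2 also lost its call in that fit (adjusted p = 0.112).

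Of the 7 genes of the phosphatidylinositol 3-kinase complex and its partners, AMBRA1 rose and the other 6 did not pass the test. AMBRA1, a scaffold that links Beclin 1 and ULK1 to ubiquitin ligases, had a log2 fold change of 0.26 (SE 0.076, adjusted p = 0.00961), which was 0.34 without DMSO replicate 5, its highest DMSO sample. It was 0.41 in replicates 1 to 3 alone and 0.13 in replicates 4 to 6 alone, where the call was lost (adjusted p = 0.413). BECN1, the gene of Beclin 1, had 0.11 (adjusted p = 0.0889), and it passed the test without DMSO replicate 5 (0.13, adjusted p = 0.0426), without DMSO replicate 6 and without PBKi replicate 5. The value of BECN1 was 0.21 in replicates 1 to 3 alone (adjusted p = 0.00991) and 0.03 in replicates 4 to 6 alone (adjusted p = 0.841). PIK3C3, the catalytic subunit, and PIK3R4, the regulatory subunit, both had -0.11 (adjusted p = 0.125 and 0.0655), and PIK3R4 passed the test by DESeq2 (-0.10, adjusted p = 0.0305) and with the covariate (-0.11, adjusted p = 0.0242). ATG14, which directs the complex to autophagosome formation, had 0.09 (adjusted p = 0.349). UVRAG, its counterpart in endosome maturation, had -0.02 (adjusted p = 0.81), and RUBCN, which encodes the inhibitor Rubicon, had 0.10 (adjusted p = 0.189).

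Over the 10 conjugation genes the median log2 fold change was -0.00076, with a single rise and a single fall, both among the ATG4 proteases that prime and recycle ATG8 proteins. ATG4A had a log2 fold change of 0.30 (SE 0.066, adjusted p = 0.00168). ATG4C had a log2 fold change of -0.24 (SE 0.067, adjusted p = 0.00766). Its call was lost in replicates 1 to 3 alone (-0.18, adjusted p = 0.0637), in replicates 4 to 6 alone (-0.30, adjusted p = 0.0579) and without PBKi replicates 3 and 6 (-0.19, adjusted p = 0.072). ATG4B and ATG4D did not pass the test (adjusted p = 0.273 and 0.386), and neither did the E1-like ATG7, the E2-like ATG3 and ATG10 or the ATG12, ATG5 and ATG16L1 genes of the E3-like complex. The log2 fold changes of these 6 genes lay between -0.11 and 0.17, and their adjusted p between 0.142 and 0.383. In replicates 1 to 3 alone ATG5 (-0.16, adjusted p = 0.0289) and ATG12 (-0.18, adjusted p = 0.0331) were called lower by edgeR. In replicates 4 to 6 alone ATG5 was -0.03 (adjusted p = 0.828) and ATG12 0.04 (adjusted p = 0.809). STX17, the syntaxin through which autophagosomes fuse with lysosomes, had 36.3 to 44.1 CPM in DMSO and 44.3 to 49.9 CPM in PBKi, a log2 fold change of 0.17 (adjusted p = 0.0186) that lost its call without DMSO replicate 1 (0.14, adjusted p = 0.0531). The call of STX17 was also lost by edgeR without the count filter (adjusted p = 0.0644). It was lost in replicates 4 to 6 alone (adjusted p = 0.213) and without PBKi replicates 3 and 6 (adjusted p = 0.0656).

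Of the 16 members called, ATG4A, GABARAP, GABARAPL1, MAP1LC3B, OPTN and WDR45 kept the call in all 24 alternative fits, and no call turned its direction in these fits. In replicates 1 to 3 alone, 16 members were called higher and 3 lower, where 22.6% and 21.3% of all genes tested were called. In replicates 4 to 6 alone, the 6 members just named were called higher, where 9.08% of all genes were called higher and 8.48% lower. Without PBKi replicates 3 and 6, 8 members were called higher, where 15.5% of all genes were called higher and 14.2% lower. Called in replicates 1 to 3 alone but not in the main fit were BECN1, RUBCN, ATG2A, ATG2B and TAX1BP1 (higher) and ATG5 and ATG12 (lower).

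Among 69 other genes of the pathway, 64 were tested, and 22 rose (34.4%) and 15 fell (23.4%), beside the 20.1% and 21.5% of all genes tested. The same 20.1% and 21.5% are the background of each list that follows. The median log2 fold change of these 64 genes was 0.03. SQSTM1, which encodes the receptor p62 and belongs beside the members in function, had 102.2, 109.8 and 142 CPM in the lowest, median and highest DMSO sample and 425, 527 and 569 CPM in PBKi. Its PBKi values were all above its DMSO values, with a log2 fold change of 2.15 (SE 0.086, adjusted p = 4.29e-12), second to OPTN among the receptor genes tested in both lists. Of the 15 genes tested in this list of other receptors, which includes SQSTM1, 5 rose (33.3%) and 5 fell (33.3%). STBD1, a receptor for glycogen, had a log2 fold change of 0.78 (adjusted p = 0.000291), and BNIP3, a hypoxia-induced receptor for mitochondria, had -0.69 (adjusted p = 0.000199).

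All 13 genes of the fusion machinery were tested, of which 7 rose (53.8%) and 1 fell (7.69%), with a median log2 fold change of 0.26. VPS18, a core subunit of the HOPS tether, had 23.5, 27.8 and 40.03 CPM in the lowest, median and highest DMSO sample and 48.9, 52.5 and 56.0 CPM in PBKi. The groups did not overlap, and the log2 fold change was 0.85 (SE 0.097, adjusted p = 2.46e-06). PLEKHM1, which joins HOPS, RAB7 and ATG8 proteins, had a log2 fold change of 0.58 (adjusted p = 2.38e-05). Of 10 other early autophagy genes tested, 4 rose (40%) and 1 fell (10%), the latter being ATG16L2, a paralogue of ATG16L1, with a log2 fold change of -0.52 (adjusted p = 0.002).

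Among 19 genes of mTORC1 and AMPK signalling, which acts upstream of the ULK complex, 2 rose (10.5%) and 6 fell (31.6%), and the 42.1% called in either direction lay near the 41.7% of all genes tested. SESN2, a leucine sensor that restrains mTORC1, had a log2 fold change of 0.67 (adjusted p = 5.15e-06), and DDIT4 (REDD1), another inhibitor of mTORC1, had -0.84 (adjusted p = 4.13e-06). Of 7 transcription factor genes, 4 rose (57.1%) and 2 fell (28.6%). TFE3, a MiT/TFE factor of lysosomal and autophagy genes, had 56.2, 61.9 and 67.7 CPM in the lowest, median and highest DMSO sample and 87.1, 89.6 and 97.4 CPM in PBKi, with no overlap and a log2 fold change of 0.57 (SE 0.053, adjusted p = 2.08e-07). Its relative TFEB had a log2 fold change of -0.29 (adjusted p = 0.029), a call kept in 6 of the 12 fits that left out 1 sample, and MITF had 0.00 (adjusted p = 0.997).

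**Figure D5:**
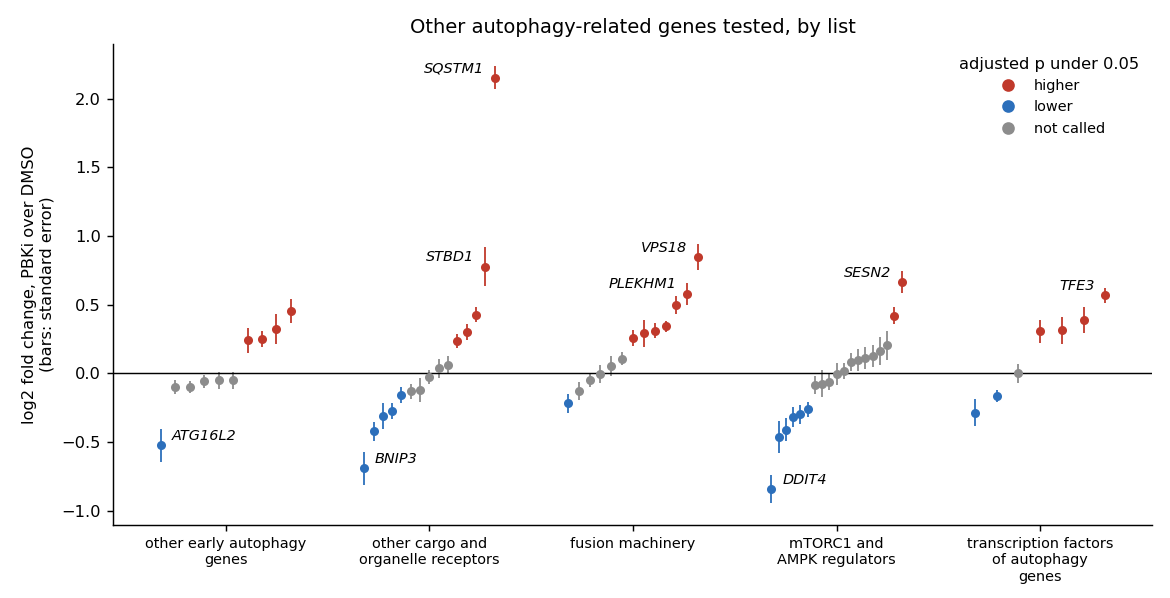
Log2 fold change of PBKi over DMSO (y axis) for 64 other autophagy-related genes tested, in 5 lists and ordered by value within each, with bars for the standard error and names for genes that passed the test with an absolute value of at least 0.5. SQSTM1 at 2.15 lies apart, and the other 63 genes lie between -0.84 and 0.85.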

How the data were processed

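RNAseq of 12 C4-2 libraries was analysed, 6 treated with DMSO and 6 with PBKi. Per the labels and the methods of the study, single-end reads were mapped by the authors with TopHat 2.0.4 (GRCh37) and counted per gene with HTSeq 0.5.3p9. The deposited values are these raw counts, in 1 table per sequencing lane. Alignments that were not unique, 26.7% to 29.3% of the alignments counted, carry no gene in these tables. The lanes of a library were added together, as they agreed within sampling noise (chi-square over its degrees of freedom, 0.993 to 1.02). DMSO replicate 5 had 3 lanes and all others had 4. No 2 replicates agreed within sampling noise (4.11 to 25.2). Groups and replicate numbers came from the labels.

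PBKi was compared with DMSO over all genes that reached 10 counts in 6 or more samples by edgeR 4.0.16 (R 4.3.3, TMM factors, quasi-likelihood test, no covariate, Benjamini-Hochberg adjustment, threshold 0.05), where the study had used DESeq. SE was the absolute log2 fold change over the square root of F, and CPM are TMM-normalised. Overlap between groups is judged on CPM. Counts were simulated for this comparison, with 100 genes set to change by 0.5 on the log2 scale and 100 by 1, and 14358 genes were tested. Of the changed genes tested, 70.0% and 92.9% were recovered, and 2.42% of calls were false. The simulation held few changed genes, no smaller changes and no division between replicate sets. These rates therefore need not hold for the data, where 41.7% of genes were called and most members changed by less than 0.5. Counting error is greatest for genes with few counts, such as MAP1LC3A. Coordinates and transcript lengths came from GENCODE 44 mapped to GRCh37, an annotation newer than that of the authors.

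The members, the other gene lists, the motifs and the tests were chosen with earlier results of these data known, so that nothing here is independent support for them. Values per sample are given for members with an adjusted p under 0.05 and a log2 fold change of 0.4 or more in size and for the ATG8 genes, and genes of other lists are named from 0.5, with SQSTM1, TFEB, TFE3 and MITF in any case. Alternatives were DESeq2 1.42.0, limma-voom (limma 3.58.1), other size factors, count filters, lanes, thresholds, replicate sets, a replicate block and leaving out each sample. Leaving out PBKi replicates 3 and 6, and all alternatives for the other lists, were added after the data were seen. NCOA4, and CCPG1 of the other receptors, were not analysed here.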

Additional observations from a re-analysis of the deposited data

Results flagged for a closer look

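In 7 of 76 groups of values (38 genes in 2 conditions), 1 sample stood apart from the other 5 by Dixon's criterion, which chance alone meets in about 1 group of 20. DMSO replicate 5 accounted for 5 of the 7. It was the highest DMSO sample for AMBRA1 (36.6 CPM, next 29.8), ATG2A (45.0 CPM, next 29.5), ATG9A (89.7 CPM, next 67.4) and ATG4D (60.0 CPM, next 40.6), and the lowest for ATG10 (5.63 CPM, next 7.62). This library was the shallowest, with 9663203 reads on genes, and over all genes tested it was the highest DMSO sample for 30.0% and the lowest for 24.8%. Its part in these values was not tested. PBKi replicate 3 was the highest treated sample for WDR45 (26.4 CPM, next 23.6), and PBKi replicate 6 for STX17 (49.9 CPM, next 46.4); these libraries had the greatest shares of reads outside genes.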

How the results depend on the processing

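The number of upregulated members (12) ranged from 9 to 14 when 1 sample was left out, and was 6 in replicates 4 to 6 alone and 3 where the log2 fold change had to reach 0.5 in size. The number of downregulated members (4) was less stable. It was 5 by DESeq2 and 6 with the replicate set (1 to 3 or 4 to 6) as a covariate, 1 with upper-quartile factors and at an adjusted p under 0.01, and 2 without the count filter, with 10 counts required in all 12 samples and with lanes 6 to 8 only, and it ranged from 1 to 3 with 1 sample left out. It was 0 by edgeR in replicates 4 to 6 alone (1 at an unadjusted p under 0.05) and without PBKi replicates 3 and 6 (2 unadjusted), settings with fewer samples that were not run with other tools. Where the log2 fold change had to reach 0.5 in size it was 0 by edgeR, DESeq2 and limma-voom, also at an unadjusted p under 0.05. The median log2 fold change of the members (0.097) ranged from 0.075 to 0.130 with 1 sample left out.

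The replicate numbers were checked for pairing. Correlations of deviations from the group means between same-numbered samples were 0.205, 0.108, 0.256, 0.299, 0.0887 and 0.234. All were positive, and 4 of the 6 numbers had their own partner as the best. These values do not settle whether the numbers pair the samples, and the main fit did not pair them. With the replicate number as a block, 15 members were called higher and 5 lower, where 24.0% and 26.2% of all genes tested were called. The added calls were ATG2A (0.21, adjusted p = 0.0372), ATG2B (0.23, adjusted p = 0.00544), TAX1BP1 (0.12, adjusted p = 0.0466) and PIK3R4 (-0.11, adjusted p = 0.038), and no call of a member was lost.

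The difference of the MAP1LC3A to MAP1LC3B log2 ratio (0.87, unadjusted exact permutation p = 0.0476) was 0.93 with lanes 6 to 8 only (exact p = 0.130) and 0.87 in the replicate block (exact p = 0.0938), and ranged from 0.641 to 1.12 with 1 sample left out. Differences near 0 changed sign: ULK1 to ULK2 ranged from -0.039 to 0.052 and ATG2A to ATG2B from -0.095 to 0.090 with 1 sample left out. Among members that did not pass the test, UVRAG (-0.019) was 0.00074 with upper-quartile factors, 0.010 without PBKi replicates 3 and 6, and -0.035 to 0.0098 with 1 sample left out. ATG4D ranged from -0.14 to 0.0082 with 1 sample left out, the latter without DMSO replicate 5. NBR1 was -0.042 in replicates 4 to 6 alone and ranged from -0.0020 to 0.123 with 1 sample left out, and ATG12 was 0.037 in replicates 4 to 6 alone. The cause of these changes was not tested. No scaling moved the median of all genes by more than 0.020 on the log2 scale.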
